A study of Homo sapiens with 4 samples.

Results

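Chromosomes 4 and 13 were described in a map of chromatin contacts held by SMC1, a subunit of the cohesin ring, in Kelly neuroblastoma cells. The members are all 2393 contact anchors on these chromosomes, 1534 on chromosome 4 and 859 on chromosome 13, of 39507 anchors in all, and the 5183 pairs that join 2 anchors of the same one of them, of 147452 intrachromosomal pairs. The chromosomes were chosen by the measured ratio of intrachromosomal contacts between the groups, the lowest of all chromosomes, so that ratio and the summaries of the same contrast are given as a description without a test. Single pairs and anchors were tested among those of all chromosomes, and these tests are not independent of that choice. The cells were a Kelly derivative resistant to the ALK inhibitor TAE684, kept in 1 µM of it in both groups. One group received virus with a short hairpin against BORIS (shBORIS), also called CTCFL, a paralog of the insulator protein CTCF, and the other a control hairpin (shLUC). Infection lasted 24 h and puromycin selection 48 h, and each group had 2 libraries. The level of BORIS in these cells was not analysed here.

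Cohesin extrudes loops of chromatin and is held up at sites bound by CTCF, so that SMC1 contacts mark loop anchors, promoters and enhancers. Gene-poor chromosomes hold long stretches of inactive chromatin near the nuclear lamina, separated by islands of active genes, and have few such anchors per length. In neuroblastoma both chromosomes carry known regulators. HAND2, a transcription factor of the noradrenergic neuron lineage, is on chromosome 4, and RB1, a brake on the cell cycle, is on chromosome 13. Gene positions were at hand for another genome build than that of the contact tables, so that no anchor below is assigned to a gene.

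Contacts were read as paired-end tags (PETs), each the sequenced junction of 2 DNA fragments. The shLUC table held 146140 intrachromosomal and 288835 interchromosomal PETs. In shBORIS there were 163041 and 286938. Both libraries of a group were deposited as a single summed table. No value therefore has a replicate error, and a difference between groups cannot be told apart from one between these pools. Intervals in brackets are exact 95% binomial (Clopper-Pearson) intervals, or come from order statistics for median spans, and cover counting error only, since copies made by PCR carry no identifier of the molecule. A scaled ratio is the shBORIS count over the shLUC count, each divided by its table's total of the same kind of PET.

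Both chromosomes were gene-poor by annotation. By RefSeq (GRCh38.p14), chromosome 13 had 315 named protein-coding genes, or 3.31 per Mb between the first and the last, and chromosome 4 had 742, or 3.90 per Mb. These were the second and the third lowest densities of 23 chromosomes, after chromosome 18 at 3.24, and the highest was 23.8 on chromosome 19. Anchors were sparse too. Chromosome 4 had 8.03 anchors per Mb between its first and last anchor and chromosome 13 had 9.0, where the other 21 chromosomes ranged from 4.06 on X to 29.7 on chromosome 17 with a median of 13.3. The median distance from an anchor to the next was 60.2 kb on chromosome 4 and 50.6 kb on chromosome 13, against 27.6 kb over all anchors. The anchors themselves were of ordinary width, with a median of 1117 bp on chromosome 4, 1145 bp on chromosome 13 and 1172 bp over all. Broad anchors of 3 kb or more were few, 16 on chromosome 4 (1.04%) and 6 on chromosome 13 (0.698%), against 2.07% of all anchors.

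Each anchor also carried fewer contacts. In shLUC there were 2.28 intrachromosomal PETs per anchor on chromosome 4 and 2.09 on chromosome 13, and the other chromosomes ranged from 1.38 to 5.86 with a median of 3.32. Of all PETs with an end on chromosome 4, 15.3% stayed within it in shLUC, and 13.4% did so on chromosome 13, where the median of the other chromosomes was 18.7%. Interchromosomal PETs had a median of 11 per anchor in shLUC on both chromosomes and over all anchors, while in shBORIS the median was 10 on chromosome 4 and 11 on chromosome 13 and over all. Strongly covered anchors were fewer, since the class with the most interchromosomal PETs held 16.8% of the anchors of chromosome 4 and 21.4% of those of chromosome 13, against 24.4% of all. On chromosome 4, 53 anchors (3.46%) had no intrachromosomal PET in either table, and on chromosome 13 there were 38 (4.42%), against 1.82% of all anchors.

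Between the groups, contacts within both chromosomes were fewer in shBORIS, while on every other chromosome they were more. Chromosome 4 had 3497 intrachromosomal PETs in shLUC and 3311 in shBORIS, and chromosome 13 had 1793 and 1765. In none of the other 21 chromosomes (0 of 21) was the count lower in shBORIS. These values chose the chromosomes. The scaled ratio was 0.849 (0.809 to 0.890) on chromosome 4 and 0.882 (0.826 to 0.943) on chromosome 13, and the next lowest was 0.943 (0.913 to 0.973) on chromosome 5. Scaled to all PETs of a table, intrachromosomal and interchromosomal together, the ratio was nearer to 1, at 0.915 (0.872 to 0.960) on chromosome 4 and 0.952 (0.891 to 1.02) on chromosome 13. PETs per anchor went from 2.28 to 2.16 and from 2.09 to 2.05, whereas the median of the other chromosomes was 3.32 in shLUC and 3.76 in shBORIS.

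Other chromosomes with few genes or few anchors had higher ratios, with intervals that partly overlap. Chromosome 18, the gene-poorest, had a scaled ratio of 1.00 (0.923 to 1.08), and X, with the fewest anchors per Mb, had 1.01 (0.922 to 1.11). Chromosome 21, at 8.81 anchors per Mb, had 0.948 (0.852 to 1.05). The interval of chromosome 13 overlaps with those of all 3, and that of chromosome 4 with that of chromosome 21. For interchromosomal PETs with an end on the chromosome the scaled ratio was also below 1, by less, at 0.967 (0.947 to 0.986) on chromosome 4 and 0.939 (0.914 to 0.964) on chromosome 13. Divided by that ratio, the intrachromosomal ratio was 0.878 on chromosome 4 and 0.940 on chromosome 13, the lowest 2 of 23 chromosomes, with chromosome 21 next at 0.945. The part of coverage in the intrachromosomal ratios was not tested.

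**Figure D1:**
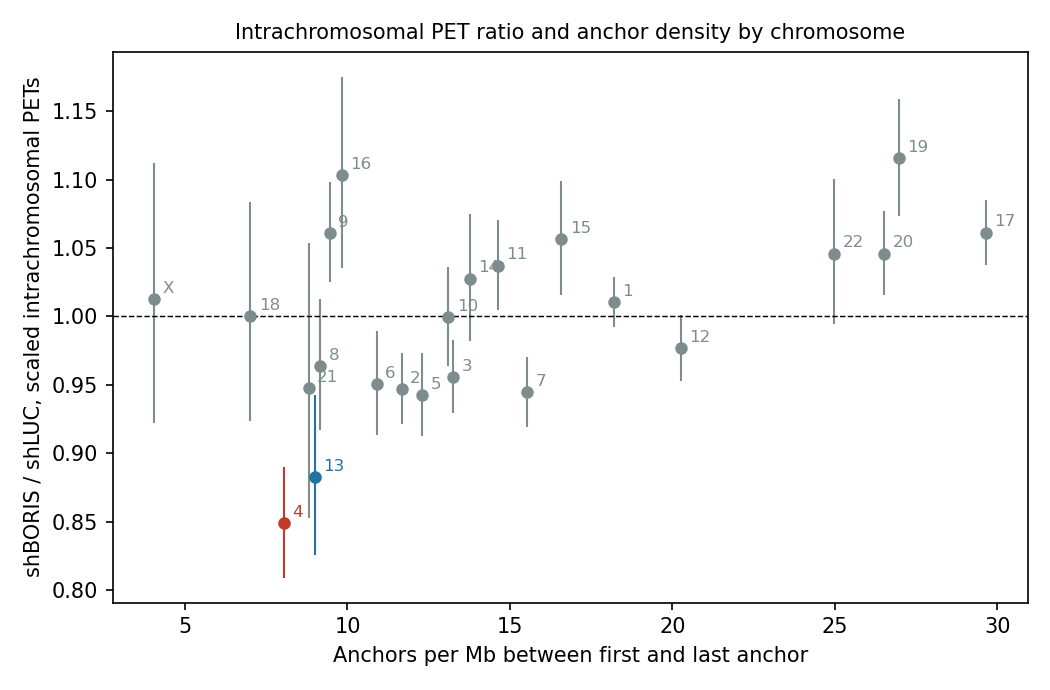
Scaled shBORIS over shLUC ratio of intrachromosomal PETs (vertical axis) against anchors per Mb (horizontal axis) for 23 chromosomes, with 95% counting intervals as bars and a dashed line at 1. Chromosomes 4 (red, 0.849) and 13 (blue, 0.882) lie lowest, while chromosome 18 and X, with fewer anchors per Mb, lie at 1.00 and 1.01.

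Along the chromosomes the low ratio was spread over many regions and not held by a few. In bins of 5 Mb, chromosome 4 had a median of 38 anchors per bin. The most, 74, were at 75 to 80 Mb and the fewest, 7 each, at 60 to 65 Mb and 190 to 195 Mb. Chromosome 13 had no anchor in its first 3 bins, from 0 to 15 Mb, only 2 anchors at 15 to 20 Mb, and its most, 90, at 110 to 115 Mb. The first anchor of chromosome 13 started at 19663163, and the bins without an anchor had no PET of either kind. Between anchors, the widest stretch was 3.57 Mb on chromosome 4, from 49123378 to 52696892. On chromosome 13 it was 2.11 Mb, from 56091962 to 58198347, in build hg19 like all positions here. Whether reads can be placed in these stretches and in the empty bins was not analysed here. Counting each PET once in every bin that holds an end of it, 42 of the 63 bins had at least 100 PETs over both tables, and 21 had fewer and are given no ratio. Of the 42, 38 had a scaled ratio under 1, 27 of 29 on chromosome 4 and 11 of 13 on chromosome 13, where over the bins of all chromosomes the share was 61.2%. The bin ratios had a median of 0.827 on chromosome 4 (0.567 to 1.04) and 0.850 on chromosome 13 (0.645 to 1.05), and of 0.966 on the other 21 chromosomes.

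The counting interval lay below 1 in 13 of the 42 bins, against 16.2% of all bins, and above 1 in 0 of 42, against 7.68% of all bins. Neighbouring bins share the PETs that join them, so these counts are not over independent regions. All 42 bins held 90 anchors or fewer, and sparse bins were also under 1 elsewhere. Among bins with up to 40 anchors the median was 0.829 on chromosomes 4 and 13 together (13 bins) and 0.927 on the others (71 bins). With 41 to 60 anchors it was 0.770 (19 bins) and 0.889 (107 bins), and with 61 to 90 anchors 0.890 (10 bins) and 0.938 (107 bins). Bins with over 90 anchors, found only on the other chromosomes, had a median of 1.03.

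**Figure D2:**
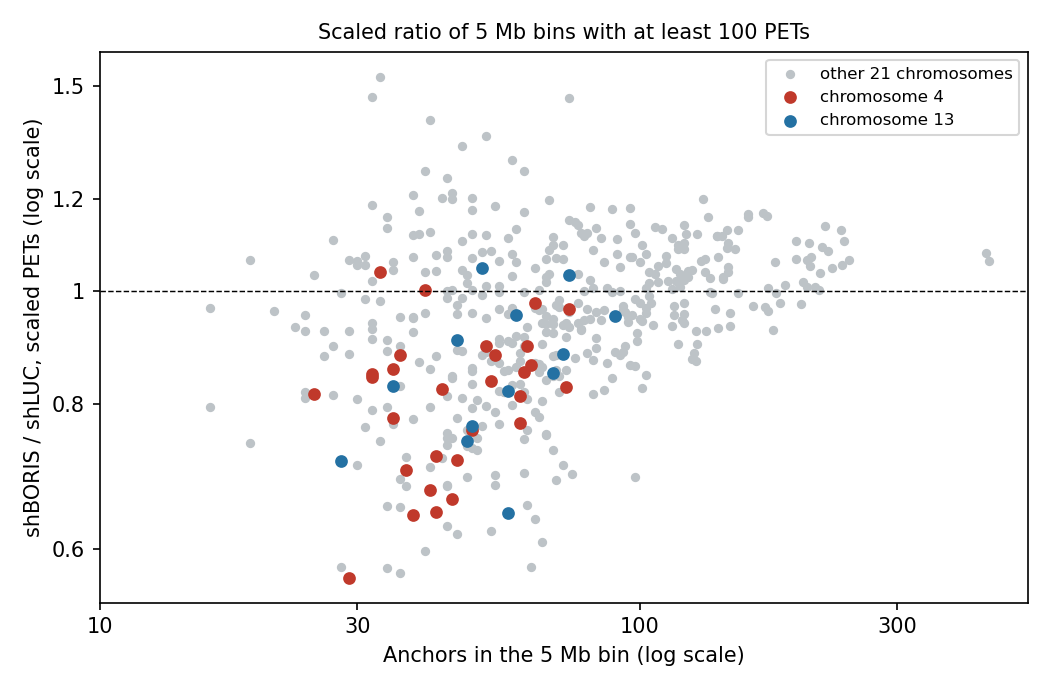
Scaled shBORIS over shLUC ratio of intrachromosomal PETs (vertical axis, log scale) against the number of anchors (horizontal axis, log scale) for every 5 Mb bin with at least 100 PETs, with a dashed line at 1. Of the 42 bins of chromosomes 4 (red) and 13 (blue), 38 lie under 1, and all hold 90 anchors or fewer, the range in which bins of the other 21 chromosomes (grey) also lie mostly under 1.

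The lowest bin of chromosome 4 was at 115 to 120 Mb, where 29 anchors had 68 PETs in shLUC and 43 in shBORIS, a ratio of 0.567 (0.378 to 0.843). Between chromosomes the bin had 443 and 364 PETs, a ratio of 0.827 (0.718 to 0.952). At 95 to 100 Mb there were 109 and 78 PETs, a ratio of 0.641 (0.473 to 0.866), with an interchromosomal ratio of 0.910 (0.793 to 1.04). At 145 to 150 Mb there were 82 and 59 PETs, a ratio of 0.645 (0.454 to 0.912), with 0.958 (0.838 to 1.09) between chromosomes. The first 2 of these lie in a stretch from 90 to 125 Mb, picked after its values were seen, in which all 5 bins with enough PETs had ratios between 0.567 and 0.770 and intervals below 1. The lowest bin of chromosome 13 was at 45 to 50 Mb, where 57 anchors had 178 PETs in shLUC and 128 in shBORIS, a ratio of 0.645 (0.510 to 0.813). Its interchromosomal ratio was 0.907 (0.824 to 1.00), nearer to 1 than the intrachromosomal one, as in the 3 bins of chromosome 4.

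The highest bins lay close to 1. On chromosome 13 the bin at 25 to 30 Mb had 107 and 125 PETs, a ratio of 1.05 (0.802 to 1.37), and its neighbour at 30 to 35 Mb had 173 and 199, a ratio of 1.03 (0.837 to 1.27). On chromosome 4 the bin at 180 to 185 Mb had 89 and 103 PETs, a ratio of 1.04 (0.774 to 1.39), and that at 35 to 40 Mb had 77 and 86, a ratio of 1.00 (0.727 to 1.38). Every one of these 4 intervals includes 1. In 37 of the 42 bins the intrachromosomal ratio was below the interchromosomal one, as in 286 of the 469 bins of all chromosomes. Across the 42 bins the log2 ratios of both kinds had Pearson's r = 0.37 and Spearman's rho = 0.31, against 0.49 and 0.52 over all 469 bins, as a description of bins that share libraries and, in part, PETs.

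The bin with the most contacts kept its level. On chromosome 4 at 40 to 45 Mb, 64 anchors had 394 PETs in shLUC and 429 in shBORIS, a scaled ratio of 0.976 (0.849 to 1.12), or 6.16 and 6.70 PETs per anchor where the median bin of the chromosome had 2.26 and 2.0. This bin held 11.3% of the chromosome's PETs in shLUC and 12.96% in shBORIS. Fewer PETs were found in the bins at 140 to 145 Mb, with 312 and 288 PETs and a ratio of 0.827 (0.702 to 0.974), and at 170 to 175 Mb, with 279 PETs in each table and a ratio of 0.896 (0.757 to 1.06). On chromosome 13 the most PETs, 230 and 218, were at 50 to 55 Mb, a ratio of 0.850 (0.703 to 1.03).

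By span, the ratio was lower for long contacts than for short ones on both chromosomes, and also on the other 21 together. On chromosome 4, contacts shorter than 20 kb had 623 PETs in shLUC and 655 in shBORIS, a scaled ratio of 0.942 (0.843 to 1.05). From 20 to 100 kb the counts were 688 and 713, which scale to 0.929 (0.835 to 1.03). From 100 to 500 kb, the class with the most PETs, they were 1437 and 1329, or 0.829 (0.769 to 0.894) after scaling. From 500 kb to 2 Mb there were 371 and 338, scaled 0.817 (0.703 to 0.949), and beyond 2 Mb 378 and 276, scaled 0.654 (0.558 to 0.766). The 3 longer classes thus had intervals below 1 and the 2 shorter did not. On chromosome 13 the class of 100 to 500 kb had 765 and 750 PETs, a ratio of 0.879 (0.793 to 0.973), and that of 500 kb to 2 Mb had 260 and 225, a ratio of 0.776 (0.646 to 0.931). Its shorter classes had 0.968 (0.83 to 1.13) and 0.916 (0.784 to 1.07). Its PETs beyond 2 Mb, 115 and 104, gave 0.811 (0.616 to 1.07), which is not below the class before it. The other 21 chromosomes together had 1.09, 1.03, 0.987, 0.964 and 0.891 from the shortest class to the longest. Equal counts in both tables scale to 0.896, since the intrachromosomal total was larger in shBORIS. The part of this scaling in the ratios beyond 2 Mb was not tested. In all 5 classes the ratio of each of the 2 chromosomes lay below that of the other 21 together.

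The spans themselves were long. The median PET of shLUC spanned 168 kb on chromosome 4 and 173 kb on chromosome 13, the longest 2 of 23 chromosomes, whose others had a median of 121 kb and a highest value of 164 kb. In shBORIS the medians were 145 kb and 165 kb, and chromosomes 6, 18 and 21 then lay between them. Contacts of 100 to 500 kb made up 41.1% of the shLUC PETs of chromosome 4 and 42.7% of those of chromosome 13, against 33.1% on the other 21, while those of 20 to 100 kb made up 19.7% and 18.2%, against 29.0%. Had each class had the ratio of the other 21 chromosomes, the span mix of chromosome 4 would have given 1.00 and that of chromosome 13 also 1.00. With the mix of the other chromosomes put in place of their own, the ratios were 0.855 and 0.890, the lowest 2 of 23. Both calculations rest on broad span classes and on the same contrast that chose the chromosomes. The part of span in the low ratios was not tested.

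Over 2 Mb, the number of PETs was near that predicted for random ligation. The prediction takes every interchromosomal PET as a chance ligation and ignores distance. On chromosome 4 it lay below the count seen in shLUC and above that in shBORIS. Predicted from the interchromosomal PETs of each anchor, 336 PETs of fragments that met by chance would arise on chromosome 4 in shLUC, where 378 were seen, and 311 in shBORIS, where 276 were seen. For chromosome 13 the prediction was 116 where 115 were seen and 102 where 104 were seen. From 500 kb to 2 Mb the prediction was 1.70% of the shLUC PETs on chromosome 4 and 1.75% on chromosome 13, and it was lower in the shorter classes. Below 2 Mb alone, scaled to the PETs of that range, the ratio was 0.858 (0.816 to 0.902) on chromosome 4 and 0.873 (0.815 to 0.934) on chromosome 13.

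**Figure D3:**
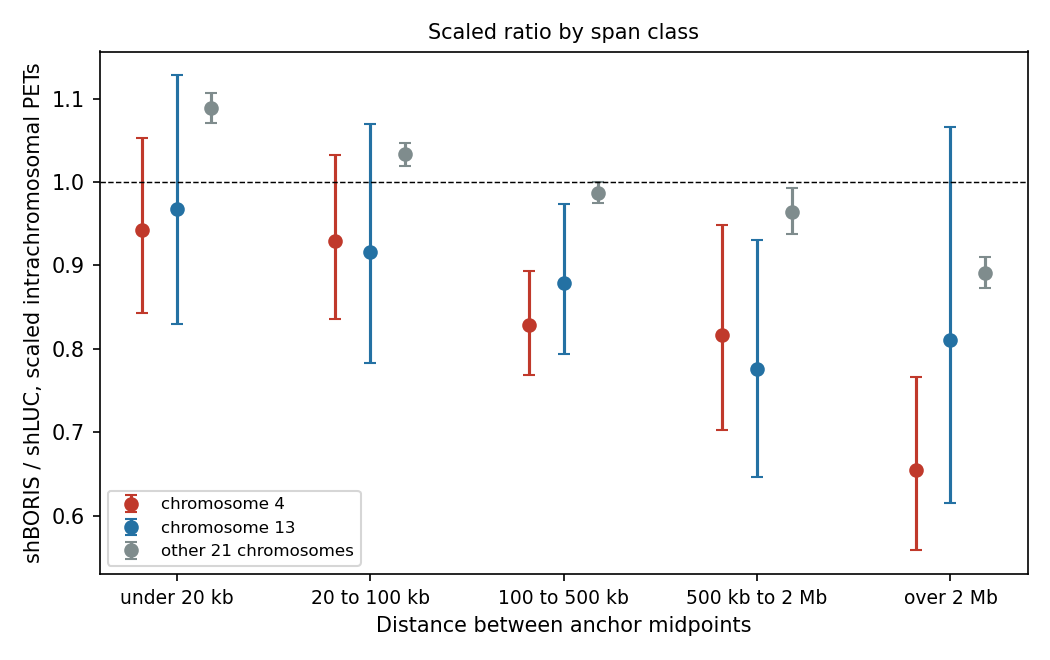
Scaled shBORIS over shLUC ratio of intrachromosomal PETs (vertical axis) in 5 classes of distance between anchor midpoints (horizontal axis), for chromosome 4 (red), chromosome 13 (blue) and the other 21 chromosomes (grey), with 95% counting intervals. From the shortest to the longest class the ratio of chromosome 4 goes from 0.942 to 0.654 and that of the other 21 from 1.09 to 0.891. Equal counts in both tables scale to 0.896.

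Called interactions are pairs with 3 PETs or more whose Bayes probability, as the authors deposited it, reached 0.9. In shLUC 251 were called on chromosome 4 and 135 on chromosome 13, and in shBORIS 253 and 130, while on each of the other 21 chromosomes the number was higher in shBORIS. Per 100 anchors these are 16.4 and 16.5 on chromosome 4 and 15.7 and 15.1 on chromosome 13, where the median of the other chromosomes was 27.0 and 31.6. Similar or lower values in shLUC were found on X (10.7), chromosome 16 (14.7) and chromosome 21 (15.7). In shBORIS X, at 11.2, was the only lower one. In shLUC 24.6% of the anchors of chromosome 4 and 24.3% of those of chromosome 13 took part in a called interaction, and in shBORIS 23.1% and 23.3%. The median share of the other chromosomes was 33.3% in shLUC and 35.9% in shBORIS. In shLUC X at 18.4% and chromosome 16 at 23.4% were lower than both, and in shBORIS only X at 18.9%. Called interactions spanned a median of 107 kb (86.8 to 129) on chromosome 4 in shLUC and 82.4 kb (63.7 to 102) in shBORIS, intervals that overlap. On chromosome 13 the medians were 65.5 kb (47.6 to 104) and 93.2 kb (39.2 to 146), which overlap too. With at least 5 PETs required, the order of the tables turned on both chromosomes, to 47.5 kb and 66.5 kb on chromosome 4 and to 31.6 kb and 22.98 kb on chromosome 13. The farthest call reached 1.22 Mb on chromosome 4 and 0.984 Mb on chromosome 13, both in shLUC.

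On chromosome 4, 124 interactions were called in both tables, 127 in shLUC alone and 129 in shBORIS alone. On chromosome 13 the numbers were 63, 72 and 67. Of the shLUC calls, 49.4% on chromosome 4 and 46.7% on chromosome 13 were thus shared, where the median of the other chromosomes was 55.0% and the lowest 34.8%, on X. Of the shBORIS calls, 49.0% and 48.5% were shared, and the median of the other chromosomes was 46.6%. Over all chromosomes 44% of the shLUC calls were not called in shBORIS, and 52% of the shBORIS calls not in shLUC. Sharing rose with the number of PETs. Of shLUC calls with 3 PETs, 20 of 94 on chromosome 4 (21.3%, 13.5 to 30.9) and 17 of 59 on chromosome 13 (28.8%, 17.8 to 42.1) were called in shBORIS as well, against 33.9% over all chromosomes. Of those with 10 PETs or more, 22 of 22 and 6 of 7 were, against 97.4% over all chromosomes. Most calls of 1 table had PETs in the other. On chromosome 4 this was so for 85 of the 127 of shLUC alone and 91 of the 129 of shBORIS alone, and on chromosome 13 for 42 of 72 and 54 of 67. Among all shLUC calls with 3 PETs, shared or not, it was so for 65 of 94 and 41 of 59, against 3488 of 4520 over all chromosomes. Among shBORIS calls with 3 PETs it was so for 73 of 97 and 38 of 48, against 3635 of 5079.

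The shared interactions of chromosome 4 with the most PETs lay in 2 regions. Weaker ones lay elsewhere, such as that between 150999319-151000119 and 151000224-151000940 with 9 and 11 PETs. In the first, 41822809-41825508 and 41875042-41877466 were joined across 52.1 kb by 14 PETs in shLUC and 35 in shBORIS, the highest count of either chromosome, with a ratio of 2.24 (1.18 to 4.51). The anchor at 41875042-41877466 also met its neighbour 41878833-41887786 with 14 and 19 PETs. In the second region the neighbours 174441852-174449323 and 174449332-174453190 had 20 and 18 PETs, and 174929832-174932037 met 174990227-174992035 across 60.2 kb with 20 and 13. Both of these pairs of the first region had more PETs in shBORIS and both of the second had fewer, and 3 of the 4 intervals include 1.

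The anchors of the first region were also among those with the most intrachromosomal PETs on chromosome 4. The anchor at 41875042-41877466 had 60 and 101 (ratio 1.51, 1.09 to 2.11), that at 41822809-41825508 had 78 and 96, and that at 41878833-41887786 had 80 and 91. All 3 had more PETs in shBORIS, unlike the chromosome as a whole. They share PETs, since those of a pair that joins them count in both of its anchors. The pair with 14 and 35 PETs is counted in that way, so the 3 are not separate observations. The ratios of 41822809-41825508, 1.10 (0.810 to 1.51), and 41878833-41887786, 1.02 (0.747 to 1.39), have intervals that include 1. The anchor at 140655224-140657985 had 68 and 57 PETs (ratio 0.751, 0.519 to 1.08) and 9 and 8 calls. Called interactions linked 15 anchors around 140655224 over 520 kb in shLUC and 16 over 598 kb in shBORIS. Most linked sets were small, and 114 of the 150 on chromosome 4 in shLUC were a single pair of anchors. Each of these is a single call, of 251 on the chromosome, so most calls lay in larger sets.

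Chromosome 13 had no linked set of 15 anchors or more. Its 5 strongest interactions were each lower in shBORIS. The pair 51265024-51267018 and 51466844-51468714, across 202 kb, had 17 and 10 PETs (ratio 0.527, 0.216 to 1.22). The anchor at 24039907-24042515 met 24143705-24145346 with 16 and 10 PETs and 24141432-24143077 with 12 and 8, both over about 0.1 Mb. The neighbours 30685634-30688009 and 30688166-30690094 had 14 and 9, and 49169314-49170599 met 49342763-49344137 across 173 kb with 11 and 7. The 5 ratios ranged from 0.527 to 0.598, and each interval includes 1. The anchor with the most PETs, at 24039907-24042515, had 41 in shLUC and 35 in shBORIS with 4 called interactions in each, and no anchor of the chromosome reached 5. The largest linked set held 7 anchors in shLUC, from 97761540 to 98012600, and in shBORIS 2 sets held 6 each, from 27558971 to 28405074 and from 97680606 to 98012600.

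Among interactions called in both tables with at least 10 PETs, the longest on chromosome 4 joined 82326537-82328086 and 83122672-83123827 across 796 kb with 4 and 6 PETs. On chromosome 13 it joined 112126341-112127580 and 113097471-113099145 across 971 kb, also with 4 and 6. The next longest on chromosome 13, 374 kb and 249 kb, had 4 and 9 PETs each. The shortest, 25978436-25979082 to 25979117-25980028 on chromosome 4 with 11 and 7 PETs and 27948462-27949423 to 27949522-27950509 on chromosome 13 with 8 and 8, joined anchors whose midpoints were 0.814 kb and 1.07 kb apart. The interval of the ratio included 1 for each of these interactions.

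No single contact or anchor passed the threshold. Fisher's exact test compared each pair with at least 10 PETs over both tables against the rest of the intrachromosomal PETs, with Benjamini-Hochberg adjustment over 3951 pairs of all chromosomes. Of the 5183 pairs here 121 had enough PETs, 83 on chromosome 4 and 38 on chromosome 13, and 0 passed (smallest adjusted p = 0.313 by Fisher's exact test). Of the pairs of all chromosomes, 0.0506% were called higher in shBORIS and 0% lower. An unadjusted p under 0.05 was found for 5 of the 121, 3 higher and 2 lower, against 3.06% and 2.63% of all pairs. Of the 83 tested pairs of chromosome 4, 48 had a ratio under 1, and of the 38 of chromosome 13, 22 did, against 48.8% of all tested pairs. The median ratio was 0.850 on chromosome 4, 0.818 on chromosome 13 and 1.02 over all. A pair that reached 10 PETs mainly in 1 table had to differ, so the extremes are partly set by the filter.

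**Figure D4:**
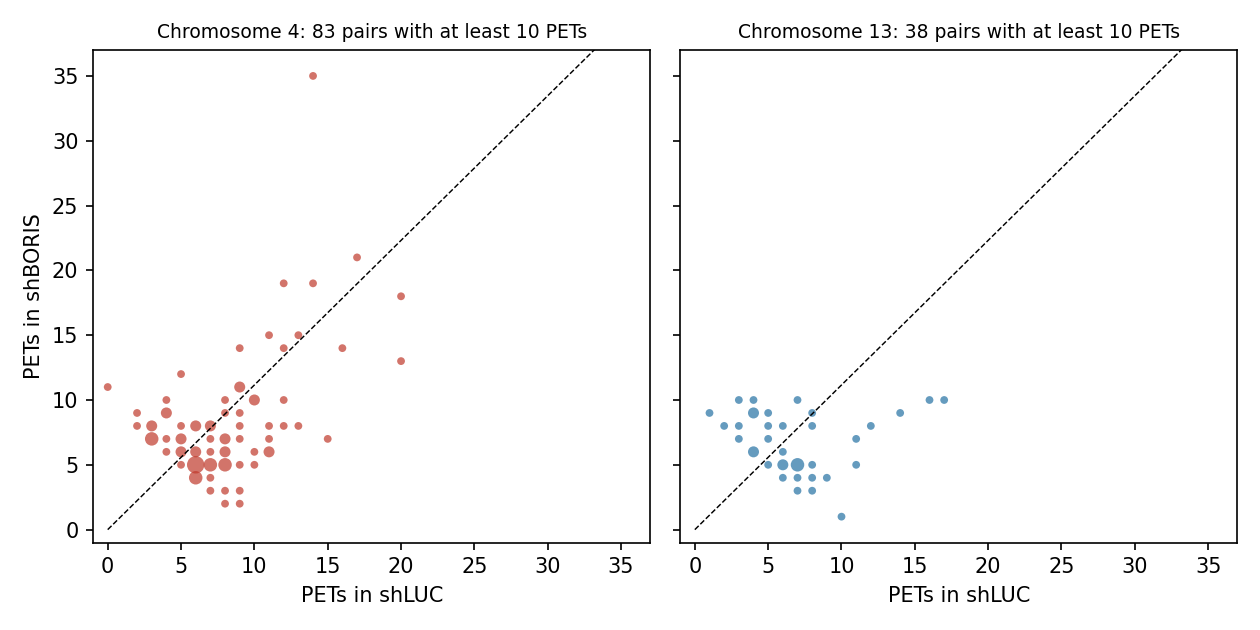
PETs in shBORIS (vertical axis) against PETs in shLUC (horizontal axis) for the 83 pairs of chromosome 4 and the 38 of chromosome 13 with at least 10 PETs, with larger points where several pairs share a position and a dashed line where scaled counts are equal. On chromosome 4 the pair at 14 and 35 stands above the line, and on chromosome 13 the pairs with the most PETs, 17 and 10 and 16 and 10, lie below it.

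The pair of smallest p on chromosome 4 joined the neighbours 141158377-141161028 and 141161201-141162071, with 0 PETs in shLUC and 11 in shBORIS, a lower limit of the ratio of 2.25 (Fisher's exact test, adjusted p = 0.313). On chromosome 13 the smallest p belonged to a decrease, with 10 PETs in shLUC and 1 in shBORIS between 113596681-113598483 and 113655401-113657333 (ratio 0.0896, 0.00207 to 0.630, Fisher's exact test, adjusted p = 0.505). Next among the decreases came 42281951-42283203 with 42283491-42284878 on chromosome 4, 9 and 2 PETs, and 115307394-115308818 with 115580099-115581386, 8 and 2 PETs, which lies in the lowest bin. The neighbours 27932751-27934196 and 27935664-27937134 on chromosome 13 had 1 and 9 PETs (Fisher's exact test, adjusted p = 0.731).

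Summed over all their intrachromosomal contacts, 688 of the 2393 anchors had at least 10 PETs and were tested among 19623. Of these 688, 0 passed (smallest adjusted p = 0.217 by Fisher's exact test), while among all anchors 0.0153% were called higher and 0.0051% lower. On chromosome 4, 272 of 438 tested anchors had a ratio under 1 and on chromosome 13 145 of 250, against 49.7% of all. With an unadjusted p under 0.05 there were 25 lower and 7 higher on chromosome 4, and 12 lower and 2 higher on chromosome 13, against 3.17% lower and 3.25% higher over all anchors. A PET counts in both of its anchors, so these counts are not over separate observations. They also follow the contrast that chose the chromosomes. The anchor of smallest p, named after its values were seen, was 174944647-174945568 on chromosome 4, which had 18 PETs in shLUC and 2 in shBORIS (ratio 0.0996, 0.0112 to 0.416, adjusted p = 0.217 by Fisher's exact test). Between chromosomes it had 11 and 9 PETs. It took part in 3 called interactions in shLUC and in 0 in shBORIS, where its 2 PETs could not make a call, which needs 3. As with pairs, an anchor that reached 10 PETs mainly through shLUC or mainly through shBORIS had to differ.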

How the data were processed

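SMC1 ChIA-PET was analysed from 1 deposited table per group, which both libraries of the group name in their labels. Per the file headers, each row gives an anchor pair with its PET count, deposited by the authors as whole numbers and taken as raw counts, a hypergeometric p-value (deposited, not used here), and a Bayes probability, a deposited fraction between 0 and 1. The deposited shBORIS table lacks a header, so its columns were taken to follow those of shLUC. Build hg19, cutadapt 1.8 and Bowtie are named per the submitters' processing notes, while the program that called anchors is not given in the sources used here. Positions are counted from 1.

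Pairs and anchors were matched by position. Of the 2393 anchors, 2389 are in both tables and 4 in shLUC alone. Span is the distance between midpoints. Intervals of median spans are from order statistics. Random ligation was predicted from products of the interchromosomal PETs of 2 anchors. Fisher's exact tests are two-sided and compare 2 pools, not the conditions. The code (Python 3.11.15, SciPy 1.17.1) was tested on simulated data. Named regions are, per chromosome, the 5 shared interactions and 5 anchors with most PETs, the 3 longest and 3 shortest shared interactions, of which the first is given, the pairs of smallest p, and the 4 lowest and 4 highest bins, besides bins by number of anchors or PETs. Members and lists were chosen with earlier results of these data known. Gene counts come from RefSeq GRCh38.p14, without provisional LOC symbols. Sequences and genes at anchors were not analysed here. One anchor of chromosome 4 that the rule names, and its interactions, are not reported here.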

Additional observations from a re-analysis of the deposited data

How the results depend on the processing

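Of 37 alternatives over 11 results, 26 stayed within the counting interval or within 1.5 times the count, and 11 moved. No scaled ratio of a chromosome crossed 1. The 2 that leave out the bin with most PETs were chosen after seeing the data. Scaled to all PETs of a table, of which a larger share was intrachromosomal in shBORIS, the ratio was 0.915 (0.872 to 0.960) on chromosome 4 and 0.952 (0.891 to 1.02) on chromosome 13, whose interval then includes 1. On chromosome 13 it was 0.951 (0.875 to 1.03) with distinct pairs in place of PETs and 0.803 (0.722 to 0.893) on pairs called in either table, and the cause was not tested. Bins with a ratio under 1 numbered 25 of 27 at 10 Mb and 12 of 13 with at least 300 PETs, counts that fall because fewer bins remain. At 2.5 Mb they numbered 35 of 44, a share of 79.5%, against 90.5% in bins of 5 Mb. The share over all chromosomes was not computed for these alternatives. With at least 5 PETs, 162 interactions were called in shLUC and 147 in shBORIS, with median spans of 47.5 kb in shLUC and 66.5 kb in shBORIS on chromosome 4, and of 31.6 kb and 22.98 kb on chromosome 13, so that the order of the tables turned on both chromosomes. Thinning shBORIS to the shLUC total gave 338 calls (median of 20 draws, probability not recomputed) against 386 in shLUC. No pair or anchor passed under any filter or scaling tried with Fisher's exact test (smallest adjusted p from 0.137 to 0.774). No paired analysis was possible because both libraries of a group share 1 table, and no replicate could be left out. At this depth, bins under 100 PETs and most single pairs cannot show moderate changes.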

Other observations

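The ratio was below 1 on both chromosomes in each class of anchors by coverage. With all anchors divided into 4 classes by their interchromosomal PETs, the scaled ratio of intrachromosomal PET ends on chromosome 4 was 0.867, 0.792, 0.822 and 0.890 from the lowest class to the highest, and on chromosome 13 it was 0.913, 0.852, 0.872 and 0.895. Over all anchors the same classes had 0.980, 0.968, 0.978 and 1.02. These values have no interval, and the part of coverage in the low ratios was not tested.

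Contacts between the 2 chromosomes were at the level of single PETs. Chromosome 4 met chromosome 13 through 389 PETs in shLUC and 373 in shBORIS, a scaled ratio of 0.965 (0.835 to 1.12), on 760 anchor pairs, none of which had more than 2 PETs over both tables. The 4 anchors listed in shLUC alone had 1 intrachromosomal PET at most and between 4 and 8 interchromosomal ones.

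Without the bin with most PETs, 40 to 45 Mb, chromosome 4 had a ratio of 0.833 (0.791 to 0.876), and chromosome 13 without 50 to 55 Mb had 0.887 (0.826 to 0.952).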
